A study of Mus musculus with 4 samples.

Results

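The genes followed here are 10 abundant genes of epithelial adhesion and the cytoskeleton in mouse small-intestinal organoids: Cdh1, Ctnna1, Ctnnb1 and Jup of the cell-cell junctions, Vil1 of the microvilli, the keratins Krt8, Krt18, Krt19 and Krt20, and the actin gene Actb. They were taken by name, 10 of the 30284 genes with a transcript in the data and 10 of the 13602 with enough counts to be tested. The choice was made with their level in each library, their difference between treatments and the standing of 1 library known, so these values are given as a description and carry no test. All 10 passed the filter on low counts, with at least 5882 counts in each library.

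The organoids were grown from small-intestinal crypts of 2 male C57BL/6J mice, labelled 9 weeks old, in Matrigel. GW3965 activates the liver X receptors (LXR, nuclear receptors for oxysterols). It was added at 2 µM to 1 culture of each mouse, and the vehicle DMSO to another. RNA was collected after 6 h, which gave 2 GW3965 and 2 DMSO libraries. The libraries numbered alike come from the same mouse, and the labels list no transgene or deletion in either group. Organoids are cultured epithelium, grown without the wall of the gut.

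In a simple epithelium, E-cadherin (Cdh1) on neighbouring cells binds outside the membrane and holds beta-catenin (Ctnnb1) or plakoglobin (Jup) inside it, and alpha-catenin (Ctnna1) links that complex to actin filaments. Keratins form another scaffold, in which a type II chain such as that of Krt8 pairs with a type I chain such as those of Krt18, Krt19 or Krt20. Actin bundles cross-linked by villin (Vil1) fill the microvilli of the brush border. Beta-catenin also carries the Wnt signal to the nucleus, and Actb is widely used as a reference gene.

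The libraries held 16572359 to 19486547 estimated counts, with 18147 to 18394 genes above 0. The GW3965 library of mouse 1 stood apart. Transcripts of the mitochondrial genome made up 14.01% of its counts, against 8.74% in the other GW3965 library and 7.6% and 9.43% in the DMSO libraries of mouse 1 and mouse 2. On the first principal component, with 51.3% of the variance of log2 CPM (counts relative to the scaled size of the library), this library lay at 43.1 and the other 3 lay between -25.2 and -8. Of all genes tested, 37.5% were lowest in it. In bulk RNA, fewer cells of a type and less RNA per cell cannot be told apart. The pan-epithelial gene Epcam, a membrane adhesion protein of epithelia, had 1530 and 2181 normalised CPM with GW3965 and 1718 and 2196 with DMSO, so the cultures were epithelial by this marker.

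Every one of the 10 genes had its lowest level in the GW3965 library of mouse 1, and 9 of the 10 had their highest in the GW3965 library of mouse 2. The DMSO libraries lay between them, except that Krt19 was highest in the DMSO library of mouse 1. Together the 10 genes held 2.62% of the gene counts in the GW3965 library of mouse 1 (95% Wilson interval 2.616 to 2.632) and 3.92% in that of mouse 2 (3.908 to 3.925). In the DMSO libraries they held 3.72% in mouse 1 (3.713 to 3.73) and 3.67% in mouse 2 (3.66 to 3.677). Only counting error enters these intervals.

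**Figure D1:**
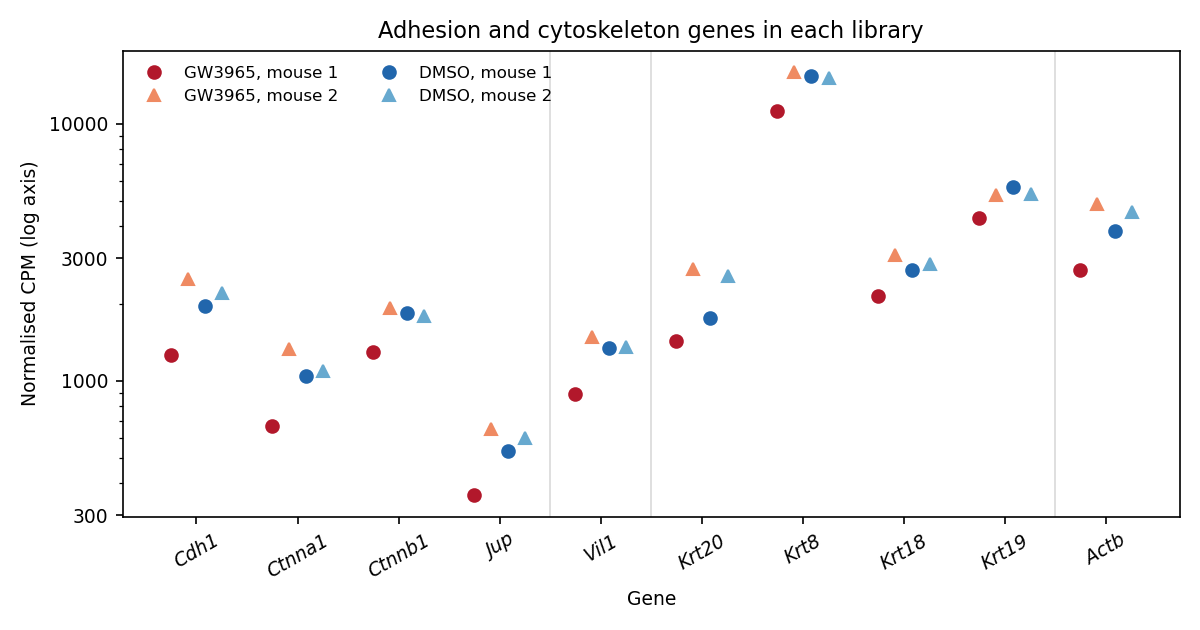
Normalised CPM (log axis) of the 10 genes in the 4 libraries, with circles for mouse 1 and triangles for mouse 2, GW3965 in red shades and DMSO in blue shades. The GW3965 circle of mouse 1 is the lowest point for each gene, as for Krt8 at 11230 CPM against 15050 to 15950 CPM in the other libraries.

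Among the junction genes, Cdh1 (chromosome 8, 106603351 to 106670246, plus strand, GRCm38) had 1264 and 2499 normalised CPM in the GW3965 libraries of mouse 1 and mouse 2, against 1951 and 2197 in the DMSO libraries of the same mice. The GW3965 values lay on either side of the DMSO values. The GW3965 mean was 1881 ± 873 CPM and the DMSO mean was 2074 ± 174 CPM (SD, n = 2 each). The log2 fold change was -0.14 ± 0.33 (SE), with a difference of -0.63 in mouse 1 and 0.19 in mouse 2.

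Ctnna1 (chromosome 18, 35118859 to 35254779, plus strand) had 667.9 and 1334 CPM with GW3965 in mouse 1 and mouse 2, against 1041 and 1088 CPM with DMSO. Of the 10 genes it had the widest gap between the mice, with log2 differences of -0.64 (mouse 1) and 0.29 (mouse 2). Its DMSO libraries were close together, at a mean of 1064 ± 33.1 CPM, and its GW3965 mean was 1001 ± 471 CPM (SD, n = 2 each).

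Ctnnb1 (chromosome 9, 120929216 to 120960507, plus strand) had 1290 and 1919 CPM with GW3965, against 1841 and 1783 CPM with DMSO in mouse 1 and mouse 2. The value of the GW3965 library of mouse 1 was 0.70 times the median of the other 3 libraries, which spanned a log2 range of 0.11. Jup (chromosome 11, 100368958 to 100397763, minus strand), whose product serves both adherens junctions and desmosomes, had 358.3 and 647.5 CPM with GW3965, against 534.2 and 601.3 CPM with DMSO. It was 0.60 times the median of the other 3 libraries in the GW3965 library of mouse 1. For Ctnnb1 mouse 1 gave a log2 difference of -0.51 and mouse 2 one of 0.11, and for Jup they gave -0.58 and 0.11.

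Vil1 (chromosome 1, 74409376 to 74435559, plus strand) had 884.9 and 1477 CPM with GW3965, against 1346 and 1356 CPM with DMSO. Its DMSO libraries differed least of all 10 genes, with a mean of 1351 ± 7.23 CPM, while its GW3965 mean was 1181 ± 418 CPM (SD, n = 2 each). Mouse 1 gave a log2 difference of -0.60 and mouse 2 one of 0.12.

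Of the keratins, Krt8 (chromosome 15, 101996698 to 102004482, minus strand) was the most abundant of the 10 genes. It had 11230 and 15950 CPM with GW3965, against 15370 and 15050 CPM with DMSO in mouse 1 and mouse 2. The other 3 libraries lay within a log2 range of 0.083, and the GW3965 library of mouse 1 was 0.45 below their median, 5.42 times that range. Krt18 (chromosome 15, 102028180 to 102032027, plus strand), the usual partner of Krt8, had 2149 and 3081 CPM with GW3965, against 2708 and 2848 CPM with DMSO. For Krt8 mouse 1 gave a log2 difference of -0.45 and mouse 2 one of 0.083, and for Krt18 they gave -0.33 and 0.11.

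Krt19 (chromosome 11, 100140810 to 100148665, minus strand) had 4291 and 5268 CPM with GW3965, against 5692 and 5350 CPM with DMSO. It was the 1 gene of the 10 whose groups did not overlap, a pattern met by 18.5% of all genes tested, and the 1 with a negative difference in both mice, -0.41 in mouse 1 and -0.02 in mouse 2. Its log2 fold change was -0.21 ± 0.26 (SE), the lowest of the 10. Krt20 (chromosome 11, 99428403 to 99438150, minus strand), a keratin of mature villus cells, had 1423 and 2717 CPM with GW3965, against 1757 and 2562 CPM with DMSO. Both libraries of mouse 2 were above both libraries of mouse 1 for Krt20, with a gap between the mice of 0.93 with GW3965 and 0.54 with DMSO on the log2 scale. In DMSO, the log2 gap between the mice was at most 0.25 in size for the other 9 genes.

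Actb (chromosome 5, 142903115 to 142906754, minus strand) had 2708 and 4876 CPM with GW3965, against 3833 and 4544 CPM with DMSO in mouse 1 and mouse 2. The GW3965 mean was 3792 ± 1533 CPM and the DMSO mean was 4188 ± 503 CPM (SD, n = 2 each). Mouse 1 gave a log2 difference of -0.50 and mouse 2 one of 0.10, so a level set over Actb is moved in opposite directions in the 2 mice.

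None of the 10 genes was called in edgeR's quasi-likelihood test between the treatments, where 0.0588% of all genes tested were called at an adjusted p of 0.05, and nothing is read from this count, since the genes were chosen with this contrast known. None had an unadjusted p under 0.05, as 1.05% of all genes had. DESeq2, which called 0.147% of all genes, and the fit with the mouse as a block, which called 0.353%, also called none of the 10. A p that misses the threshold does not show that a gene is unchanged. All 10 fold changes were negative, from -0.21 to -0.06 on the log2 scale, with standard errors of 0.26 to 0.34. Each fold change was smaller in size than its standard error. Their median was -0.15, beside 0.0 for all genes tested.

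The difference within each mouse had opposite signs. In mouse 1 all 10 genes were negative, from -0.64 to -0.30 with a median of -0.51, while the interquartile range of all genes tested was -0.27 to 0.33. In mouse 2 the values ran from -0.02 to 0.29 with a median of 0.11, and the interquartile range of all genes was -0.15 to 0.13. All but Krt19, 9 genes, were negative in mouse 1 and positive in mouse 2, as were 33.0% of all genes tested. A further 247 genes had a mean log2 CPM at least that of Jup, the lowest of the 10. This set had no upper limit and included mitochondrial genes. In it, 46.6% were lowest in the GW3965 library of mouse 1 and 31.2% were negative in mouse 1 and positive in mouse 2.

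**Figure D2:**
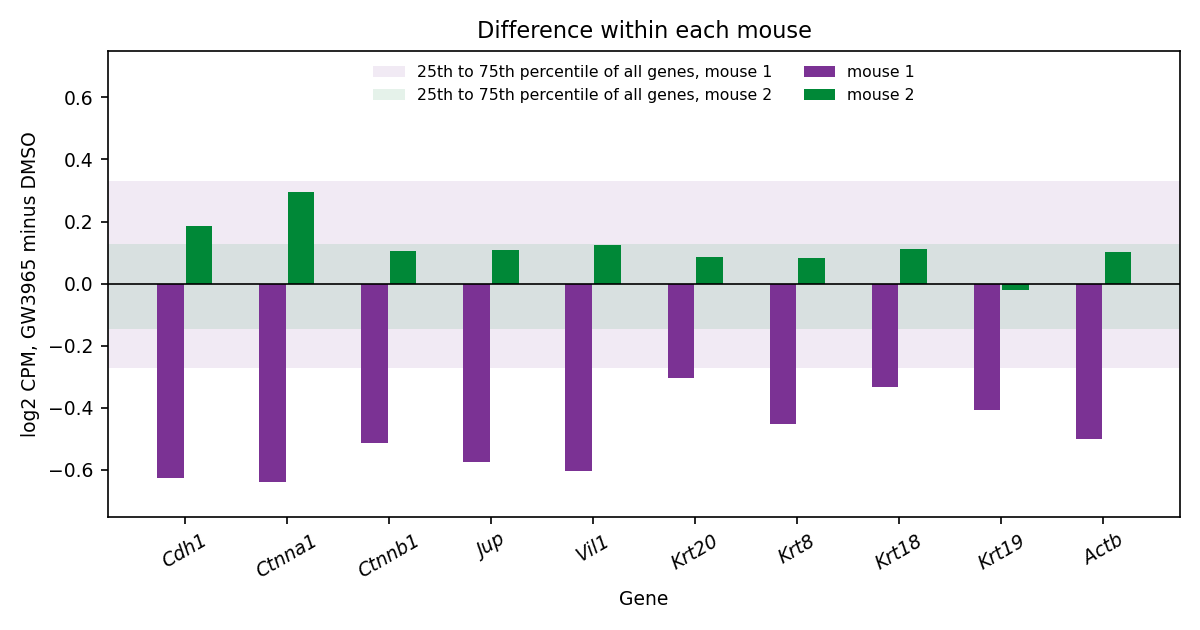
Difference in log2 CPM, GW3965 minus DMSO, for each gene in mouse 1 (purple bars) and mouse 2 (green bars), with shaded bands for the interquartile range of all genes tested in each mouse. All 10 bars of mouse 1 reach below its band, which ends at -0.27, and the bars of Cdh1 and Ctnna1 in mouse 2 reach above the band of that mouse, which ends at 0.13.

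The direction of the mean rested on 1 library. Without the GW3965 library of mouse 1, 9 of the 10 fold changes were positive, with a range of -0.07 to 0.33 and a median of 0.17. Without the GW3965 library of mouse 2 they ran from -0.71 to -0.36, and the smallest adjusted p among them was 0.084 (edgeR). Without the DMSO library of mouse 2, the fold change of Krt20 was 0.23 and the other 9 were negative. Such fits assume that the lone library varies like the other group.

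The distance of the GW3965 library of mouse 1 from the other 3 differed between the genes. It was widest for Krt20 and Cdh1, at 0.55 and 0.57 times the median of the other libraries, and narrowest for Krt19, at 0.80 times. For Jup and Actb it was 0.60 times, for Ctnna1 0.61, for Vil1 0.65, for Ctnnb1 0.70, for Krt8 0.73 and for Krt18 0.75 times. Keratins other than Krt20 were thus nearer to the other libraries than the junction genes were. Measured against the range of the other 3 libraries, the order changed, with Krt8 farthest at 5.42 ranges and Krt20 nearest at 1.35 ranges.

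Levels per transcript length were compared with TPM, which divides counts by transcript length, summed over the transcripts of a gene. Krt8 was highest, with 6317 and 10630 TPM in GW3965 cultures of mouse 1 and mouse 2 and 10250 and 9488 TPM in DMSO cultures. Krt19 followed with 3562 and 5154 TPM in GW3965 cultures and 5512 and 4840 TPM in DMSO cultures. As sums over transcripts, both stood clear of their neighbours in every library. The Krt19 sum includes Krt19-203, annotated without a coding region, with 1390 and 1970 TPM with GW3965 and 2023 and 1691 TPM with DMSO. The coding transcript Krt19-201 had 2168 and 3179 TPM with GW3965 and 3485 and 3146 TPM with DMSO. That range overlapped the range of Actb, 1638 to 3227 TPM, so the place of Krt19 depends on Krt19-203.

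Actb averaged 2433 ± 1124 TPM with GW3965 and 2896 ± 141 TPM with DMSO, Krt18 averaged 2173 ± 796 TPM with GW3965 and 2398 ± 9.57 TPM with DMSO, and Krt20 averaged 1215 ± 665 TPM with GW3965 and 1296 ± 292 TPM with DMSO (SD, n = 2 each). The ranges of Actb and Krt18 overlapped over the 4 libraries, as did those of Krt18 and Krt20, and neither pair overlapped when the GW3965 library of mouse 1 was left out. The lower genes were Ctnnb1 at 556.0 ± 202 TPM with GW3965 and 676.9 ± 77.7 with DMSO, and Cdh1 at 461.4 ± 260 TPM with GW3965 and 540.1 ± 6.29 with DMSO. Vil1 stood at 445.6 ± 192 TPM with GW3965 and 534.5 ± 25.7 with DMSO. Ctnna1 stood at 292.3 ± 168 TPM with GW3965 and 318.9 ± 2.76 with DMSO, and Jup at 241.4 ± 122 TPM with GW3965 and 293.1 ± 22.6 with DMSO. Each of these overlapped its neighbour in the order. Ctnnb1 with Cdh1, Cdh1 with Vil1, and Ctnna1 with Jup still overlapped without the GW3965 library of mouse 1.

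Ratios of TPM within a library show how far the genes kept their proportions. The type II keratin Krt8 over the sum of the type I keratins Krt18, Krt19 and Krt20 was 1.07 and 1.11 with GW3965 in mouse 1 and mouse 2, and 1.14 and 1.09 with DMSO. The Krt19 value in this sum includes Krt19-203. Krt20 over Krt8 was 0.118 and 0.159 with GW3965 and 0.106 and 0.158 with DMSO, so this ratio divided the libraries by mouse and not by treatment. Ctnnb1 over Jup likewise divided them by mouse, at 2.66 and 2.13 with GW3965 and 2.64 and 2.01 with DMSO. Ctnnb1 over Cdh1 was 1.49 and 1.08 with GW3965 and 1.37 and 1.14 with DMSO, again higher in mouse 1. Ctnna1 over Cdh1 was 0.627 and 0.637 with GW3965 and 0.599 and 0.582 with DMSO, higher with GW3965 in each mouse by a small margin. In CPM, not divided by length, the log2 difference in mouse 1 was -0.640 for Ctnna1 and -0.626 for Cdh1. The margin in mouse 1 was thus not present in CPM.

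The estimated counts of several genes were divided over more than 1 transcript, by a model in kallisto that shares reads between overlapping sequences. Ctnna1, Krt8, Krt18 and Krt20 each had 1 transcript in the files. For Cdh1, the transcript Cdh1-201 held 95.3% and 97.0% of the counts with GW3965 and 83.4% and 93.4% with DMSO. The shorter Cdh1-203, which ends 884 bases before it, held 4.66% and 2.95% with GW3965, against 16.5% and 6.54% with DMSO in mouse 1 and mouse 2. The share of Cdh1-203 was lower with GW3965 in each mouse, and most of the spread came from the DMSO library of mouse 1.

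For Ctnnb1, the transcript Ctnnb1-208, annotated as subject to nonsense-mediated decay, held 42.6% and 42.9% with GW3965 and 41.4% and 39.1% with DMSO. Ctnnb1-201, the coding transcript of nearly the same ends, held 32.0% and 33.5% with GW3965 and 43.1% and 36.1% with DMSO. Ctnnb1-208 held the larger share in 3 of the 4 libraries, and Ctnnb1-201 held it in the DMSO library of mouse 1. Ctnnb1-214, with an end 726 bases short of that of Ctnnb1-208, held 12.4% in the DMSO library of mouse 1 and 21.8% to 22.6% in the other 3. The sum of all Ctnnb1 transcripts does not depend on this division.

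Krt19-203, annotated as a processed transcript without a coding region, held 22.8% and 22.2% of Krt19 counts with GW3965 and 21.1% and 19.9% with DMSO. Transcripts with a retained intron held 1.71% of Actb counts in the GW3965 library of mouse 1, 0.620% in that of mouse 2, and 0.673% and 0.829% with DMSO. For Vil1 they held 2.10% and 0.751% with GW3965 and 0.882% and 1.10% with DMSO. For Ctnnb1 they held 2.48% and 1.44% with GW3965 and 2.68% and 1.73% with DMSO. The share was highest in the GW3965 library of mouse 1 for Actb and Vil1, and in the DMSO library of mouse 1 for Ctnnb1.

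**Figure D3:**
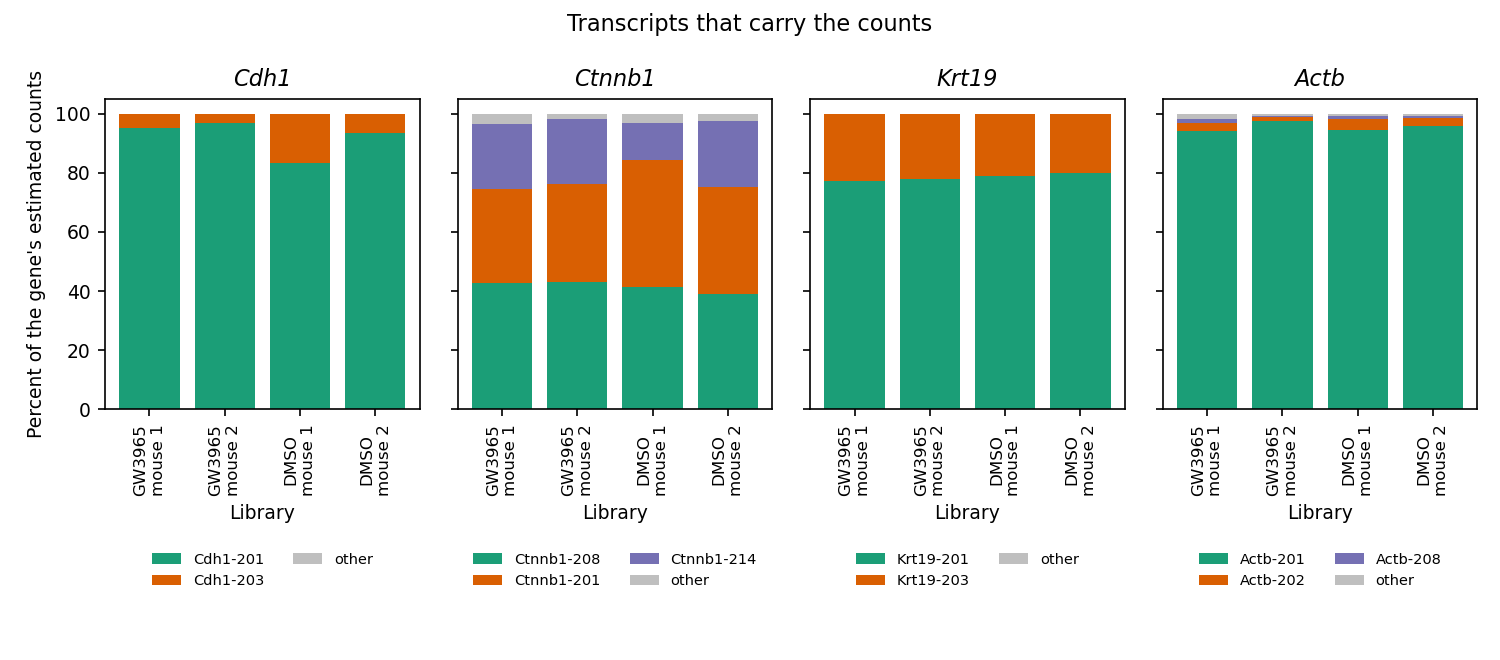
Percent of the estimated counts of Cdh1, Ctnnb1, Krt19 and Actb held by each transcript in the 4 libraries, as stacked bars with the smaller transcripts in grey. The DMSO library of mouse 1 differs most from the others for Cdh1 and Ctnnb1, with 16.5% of Cdh1 in Cdh1-203 and 12.4% of Ctnnb1 in Ctnnb1-214.

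Reads of 50 bases can also fit other genes. Of the 31-mers of Actb, 23.9% occurred in another gene, among them 15.4% in Lrrc58, 9.92% in the pseudogene Gm15725, 5.52% each in Gm4750 and Gm8464, and 3.80% in the gamma-actin gene Actg1. A 31-mer can occur in several of these genes. The same quantity was 4.01% for Ctnnb1, all in Ulk4 on the other strand, and 1.92% for Jup. It was between 0 and 1.71% for the other 7 genes, with Krt20 at 0. Lrrc58 had 382 to 792 counts in the 4 libraries and Ulk4 had 21 to 38, against at least 44462 for Actb and 21185 for Ctnnb1. Actg1 had 79755 and 160934 counts with GW3965 and 120937 and 143309 with DMSO, more than Actb in every library. All these counts come from the model that shares reads, so they do not show how many reads were shared. The processed pseudogene Gm12715, which shares 3.80% of the 31-mers of Actb, had 994 and 201 counts with GW3965 and 4955 and 709 with DMSO. The sources used here do not say whether strand was used in counting.

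Beta-actin and gamma-actin are nearly the same protein. Over whole transcripts, 3.80% of the 31-mers of Actb occurred in Actg1. The coding sequences are shown because they bear on how far Actb and Actg1 can be told apart. Their first 60 coding bases (GENCODE M21, GRCm38), with the 9 differing bases in capitals, are:
Actb-201: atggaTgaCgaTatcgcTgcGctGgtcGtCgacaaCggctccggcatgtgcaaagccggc
Actg1-202: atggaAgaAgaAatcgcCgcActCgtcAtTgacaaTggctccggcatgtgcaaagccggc
Over the coding length of 1128 bases the genes were 88.7% identical and differed at 128 bases, with a longest identical run of 62 bases. Actg1 had 4858 and 8442 CPM with GW3965, against 6212 and 7599 CPM with DMSO. Actb over Actg1 in TPM was 0.610 and 0.603 with GW3965 and 0.702 and 0.656 with DMSO. The ratio was lower with GW3965 in each mouse, while the level of each gene was highest in the GW3965 library of mouse 2.

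Promoter sequences were available for 6 of the 10 genes, and those with a motif near the start are shown. The sequences are from RefSeq (GRCm38.p6), run 5′ to 3′ on the strand of the gene, and stop before the first exon. Capitals mark a CArG box in Vil1 (the site bound by serum response factor), TATAAA directly followed by AGGTCA in Krt20, and AGGTCA in Krt18:
Vil1, chr1:74409234-74409375, plus strand: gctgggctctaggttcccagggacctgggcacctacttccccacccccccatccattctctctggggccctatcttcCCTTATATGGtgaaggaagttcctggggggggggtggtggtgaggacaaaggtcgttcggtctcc
Krt20, chr11:99438154-99438303, minus strand: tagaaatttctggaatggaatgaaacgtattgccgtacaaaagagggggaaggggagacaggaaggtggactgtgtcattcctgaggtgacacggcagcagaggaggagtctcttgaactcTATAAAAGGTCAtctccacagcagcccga
Krt18, chr15:102028066-102028179, plus strand: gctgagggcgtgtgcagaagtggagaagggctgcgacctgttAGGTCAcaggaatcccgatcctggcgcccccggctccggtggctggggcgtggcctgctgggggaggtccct
Motifs were searched on both strands of the 250 bases before each RefSeq start, and distances are counted from that start. It lies 8 bases inside the first exon of GENCODE for Vil1 and 36 bases inside it for Krt18, so the sequences printed for these genes end that many bases before it. The core promoter motif TATAAA occurred in 12.4% of the 32841 windows of all genes, the nuclear receptor half-site AGGTCA in 14%, and the CArG box in 1.47%. DR4, the LXR element of 2 copies of AGGTCA spaced by 4 bases, occurred in none of the windows of the 6 genes and in 0.0152% of all windows. The CArG box of Vil1 lay 73 to 64 bases before the start, TATAAA of Krt20 29 to 24 bases and its AGGTCA 23 to 18 bases before it, and AGGTCA of Krt18 108 to 103 bases before it. AGGTCA also lay 225 to 220 bases before the RefSeq start of Krt8, and TATAAA 120 to 115 bases before 1 of the starts of Ctnnb1. That TATAAA lay downstream of the other start of Ctnnb1. In these 2 windows fewer than 100 of the last 150 bases lay before an annotated exon, so they are not printed. The start of Krt8 lies inside the annotated gene, so the distance to the annotated start is shorter. A match is a description of letters and not a bound site.

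Other genes of the same structures were taken from lists chosen by role. In each list named here, 0 genes were called in the edgeR test in either direction, apart from the LXR targets, and DESeq2 likewise called LXR targets alone. At an unadjusted p under 0.05 there were 2 other genes in the lists, Ascl2 of the stem cell list and Pecam1 of the endothelium list. In the adherens junction list, 14 of 15 genes were tested and 12 were lowest in the GW3965 library of mouse 1, with a median log2 difference of -0.18 in mouse 1 and 0.03 in mouse 2. Cdh17, the liver-intestine cadherin, had 1586 and 2464 CPM with GW3965, against 2153 and 2410 with DMSO. Ctnnd1 (p120-catenin, which holds cadherins at the membrane) had 334.1 and 621.5 CPM with GW3965, against 525.0 and 517.6 with DMSO. The junction scaffold gene Lmo7 had 776.3 and 1221 CPM with GW3965, against 830.6 and 1159 with DMSO. Cdh17 and Ctnnd1 had the order of libraries seen for Vil1 and Ctnnb1, with 1 GW3965 library below and 1 above both DMSO libraries.

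The desmosome list had 8 of 10 tested genes lowest in the GW3965 library of mouse 1, with medians of -0.34 in mouse 1 and 0.13 in mouse 2. Dsp (desmoplakin, which anchors keratin filaments to desmosomes) had 385.3 and 672.9 CPM with GW3965, against 507.0 and 571.3 with DMSO, and the desmosomal cadherin Dsg2 had 423.8 and 768.6 CPM with GW3965, against 570.9 and 660.2 with DMSO. Perp, a small membrane protein of desmosomes, had 328.2 and 370.6 CPM with GW3965, against 329.4 and 383.9 with DMSO. In the tight junction list 14 of 20 genes were lowest in that library, with medians of -0.18 and 0.04. Its most abundant genes were claudins, the strand-forming proteins of tight junctions, and these followed the mouse rather than the GW3965 library of mouse 1. Cldn4 had 2198 and 3059 CPM with GW3965, against 2180 and 2921 with DMSO, and Cldn3 had 967.4 and 1184 CPM with GW3965, against 969.5 and 1209 with DMSO. For Cldn4, Cldn3 and Cldn7 the log2 difference lay between -0.03 and 0.01 in mouse 1, unlike -0.63 for Cdh1.

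The microvillus list had 16 of 22 genes lowest in the GW3965 library of mouse 1, with medians of -0.28 in mouse 1 and 0.09 in mouse 2. Ezr (ezrin, which ties actin to the membrane) had 1116 and 1849 CPM with GW3965, against 1477 and 1739 with DMSO. Myo1a, a brush border myosin, had 350.3 and 475.8 CPM with GW3965, against 403.1 and 459.9 with DMSO. Among other keratins 8 of 12 tested genes were lowest in that library, with medians of -0.33 and -0.02, and Krt7 had 857.4 and 1102 CPM with GW3965, against 1045 and 1103 with DMSO. Krt23 had 202.4 and 246.1 CPM with GW3965, against 200.3 and 234.7 with DMSO, with little difference between treatments in either mouse.

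For other actins and actin regulators, 24 of 34 tested genes were lowest in the GW3965 library of mouse 1, with medians of -0.17 and 0.04. Tmsb4x, which binds actin monomers, ran the other way, with 2586 and 1681 CPM with GW3965, against 1644 and 1976 with DMSO. In the cell-matrix adhesion list 15 of 19 genes were lowest in that library, with medians of -0.36 and 0.10. Itga6, a laminin receptor subunit, had 371.1 and 578.2 CPM with GW3965, against 534.2 and 563.0 with DMSO, while the keratin linker gene Plec had 608.5 and 703.5 CPM with GW3965, against 515.3 and 697.9 with DMSO.

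Genes that act on beta-catenin in the destruction complex or the nucleus had 9 of 14 tested genes lowest in the GW3965 library of mouse 1, with medians of -0.22 and 0.06. Csnk1a1, the kinase that primes beta-catenin for degradation, had 466.4 and 537.8 CPM with GW3965, against 557.1 and 524.7 with DMSO. Of the genes around serum response factor and its cofactor MRTF, 6 of 13 were lowest in that library, with medians of -0.12 and 0.08. Tagln2, an actin-binding calponin relative, had 370.7 and 525.7 CPM with GW3965, against 590.7 and 493.0 with DMSO. Of the other intermediate filament genes 3 of 9 were lowest in that library, with medians of 0.01 and -0.03, and Lmna, which encodes nuclear lamins A and C, had 239.9 and 395.9 CPM with GW3965, against 401.0 and 387.9 with DMSO.

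**Figure D4:**
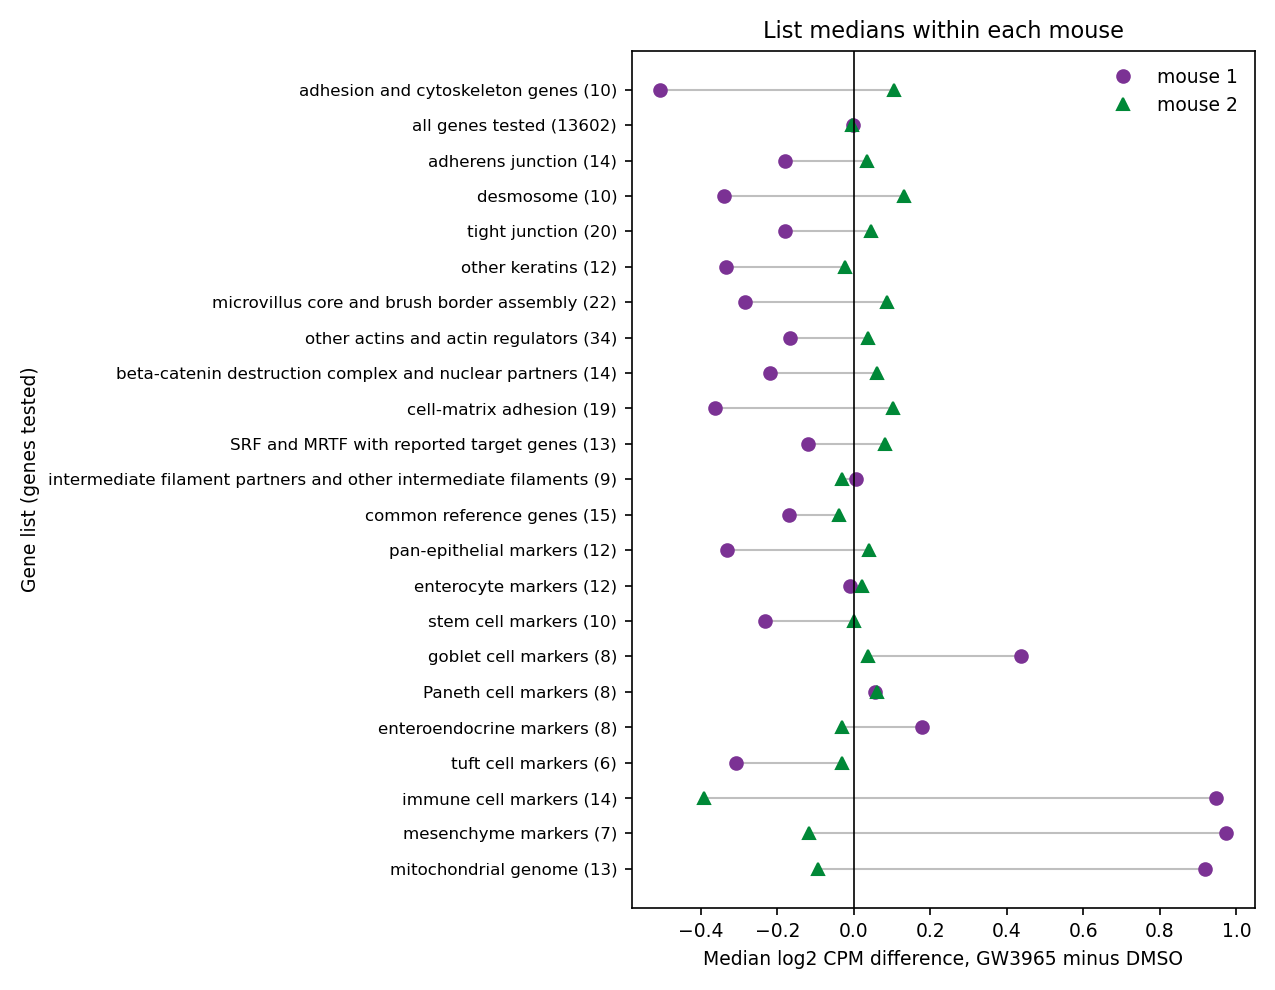
Median log2 CPM difference, GW3965 minus DMSO, of each gene list in mouse 1 (circles) and mouse 2 (triangles), with the number of genes tested in brackets. The 10 genes have medians of -0.51 and 0.11, and immune, mesenchyme and mitochondrial genes lie at 0.92 to 0.97 in mouse 1.

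Common reference genes other than Actb had 8 of 15 lowest in the GW3965 library of mouse 1, with medians of -0.17 in mouse 1 and -0.04 in mouse 2. Gapdh, of glycolysis, had 1465 and 2178 CPM with GW3965, against 2262 and 2102 with DMSO in mouse 1 and mouse 2. Like Actb it was lowest in the GW3965 library of mouse 1, but it was highest in the DMSO library of that mouse. Rplp0, of the ribosome, had 2001 and 1656 CPM with GW3965, against 1827 and 1852 with DMSO, and Pgk1 had 1218 and 1185 CPM with GW3965, against 1233 and 1352 with DMSO. For Rplp0 and Pgk1 the log2 difference in mouse 1 was 0.13 and -0.02, beside -0.50 for Actb.

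Markers of some cell types moved with the same library, while the medians of enterocyte and Paneth cell markers were near 0 in both mice. Genes within these 2 lists went both ways. In mouse 1 the log2 difference ran from -0.57 (Slc5a1) to 0.86 (Fabp2) for enterocyte markers. For Paneth cell markers it ran from -0.49 (Pla2g2a) to 0.40 (Mmp7). Of 12 enterocyte markers, 6 were lowest and 3 highest in the GW3965 library of mouse 1. Of the pan-epithelial markers 11 of 12 were lowest in the GW3965 library of mouse 1, with medians of -0.33 and 0.04 and a summed level, in CPM of the unscaled library totals, of 4415 and 5972 with GW3965 and 5593 and 5848 with DMSO. Enterocyte markers had medians of -0.01 and 0.02, stem cell markers -0.23 and -0.001, goblet cell markers 0.44 and 0.04, Paneth cell markers 0.06 and 0.06, enteroendocrine markers 0.18 and -0.03 and tuft cell markers -0.31 and -0.03 in mouse 1 and mouse 2. Immune cell markers had 12 of 14 tested genes highest in the GW3965 library of mouse 1, with medians of 0.95 and -0.39. Their summed level on the same scale was 436.5 and 393.5 CPM with GW3965 and 406.8 and 408.6 CPM with DMSO. Most of that sum in each library was Cd74, which encodes the invariant chain of MHC class II. It had 234.1 and 314.6 unscaled CPM with GW3965 and 302.4 and 310.0 CPM with DMSO. Without Cd74 the list summed to 202.4 and 78.9 CPM with GW3965 and 104.5 and 98.6 CPM with DMSO. Ptprc, the pan-leukocyte marker, had 21.9 and 11.5 CPM with GW3965, against 10.7 and 12.7 with DMSO.

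Of 16 mesenchyme markers 7 had enough counts to be tested, and 5 of these were highest in that library, with medians of 0.97 and -0.12. The summed level of the list was 12.7 and 7.86 CPM with GW3965 and 6.98 and 8.98 CPM with DMSO, and Cdh2, Twist1 and Lum were at 0 in 3 of the 4 libraries each. Zeb1, a transcription factor of mesenchymal cells, had 3.53 and 1.52 CPM with GW3965, against 1.59 and 2.02 with DMSO. The collagen gene Col1a1 had 1.65 and 1.10 CPM with GW3965, against 0.616 and 1.33 with DMSO. Acta2 went the other way, as the 1 tested gene of the list lowest in that library. It had 0.975 and 1.31 CPM with GW3965, against 1.03 and 1.43 with DMSO. Of 6 endothelium markers Pecam1 alone was tested, with 25.7 and 16.8 unscaled CPM with GW3965 and 13.8 and 14.1 with DMSO. The list summed to 26.2 and 17.2 CPM with GW3965 and 14.2 and 14.3 CPM with DMSO, and Emcn was at 0 in every library. Cdh5, Kdr, Tek and Flt1 had at most 0.183 unscaled CPM in any library, so nearly all of the sum was Pecam1. All 13 genes of the mitochondrial genome were highest in the GW3965 library of mouse 1, with medians of 0.92 and -0.09. The part of the immune, mesenchyme and mitochondrial transcripts in the levels of the 10 genes was not tested. With mitochondrial genes left out of the library sizes and the test, the 10 fold changes ran from -0.20 to -0.05 on the log2 scale.

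The treatment itself was visible in both mice. Of 7 LXR targets, 6 were called higher with GW3965. Among them the sterol exporter gene Abcg1 had 25.7 and 28.7 CPM with GW3965, against 1.39 and 1.27 with DMSO (adjusted p = 0.000157, edgeR's quasi-likelihood test). Mylip, which was not called, was also higher, with 7.80 and 5.51 CPM with GW3965, against 1.03 and 1.54 with DMSO.

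The 5 other genes whose pattern over the 4 libraries was most like the mean of the 10 genes were Tnfaip1, Hipk3, Actn4, Tnfrsf21 and Ctdp1. Likeness was the root-mean-square difference of centred log2 CPM, taken over 5314 genes whose mean log2 CPM was 5 or more, and it was 0.014 to 0.016 for these 5. Actn4, an actin cross-linking alpha-actinin, had 1190 and 1979 CPM with GW3965, against 1719 and 1857 with DMSO. Of the 10 genes themselves, Vil1 was nearest to their mean at 0.044, and Krt19 and Krt20 were farthest at 0.168 and 0.174. Of the 5314 genes, 33.5% lay within the distance of Krt20 and 8.69% within the median distance of the 10 genes, and all values share the same 4 libraries.

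A further table from the authors gives log2 CPM per gene symbol and holds all 10 genes. In the authors' deposited table each of the 10 was lowest in the GW3965 library of mouse 1, as were 27.5% of 8463 genes matched. Their median difference in the authors' deposited table was -0.24 in mouse 1 and 0.12 in mouse 2, beside -0.51 and 0.11 from the estimated counts. Averaged over the mice, the difference in the authors' deposited table ran from -0.15 for Krt19 to 0.02 for Ctnna1, the 1 gene with a positive value. Cdh1 had 10.885 and 11.188 log2 CPM with GW3965 in the authors' deposited table, against 11.18 and 10.97 with DMSO. Across genes, the SD of the mean of mouse 1 minus the mean of mouse 2 was 0.033 in the authors' deposited table and 0.27 from the estimated counts. The sources used here do not say how that table was scaled. With the mice so close together in it, its values may have been adjusted between mice, and a difference within a mouse in the authors' deposited table may then not be the same quantity as one from the counts.

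**Figure D5:**
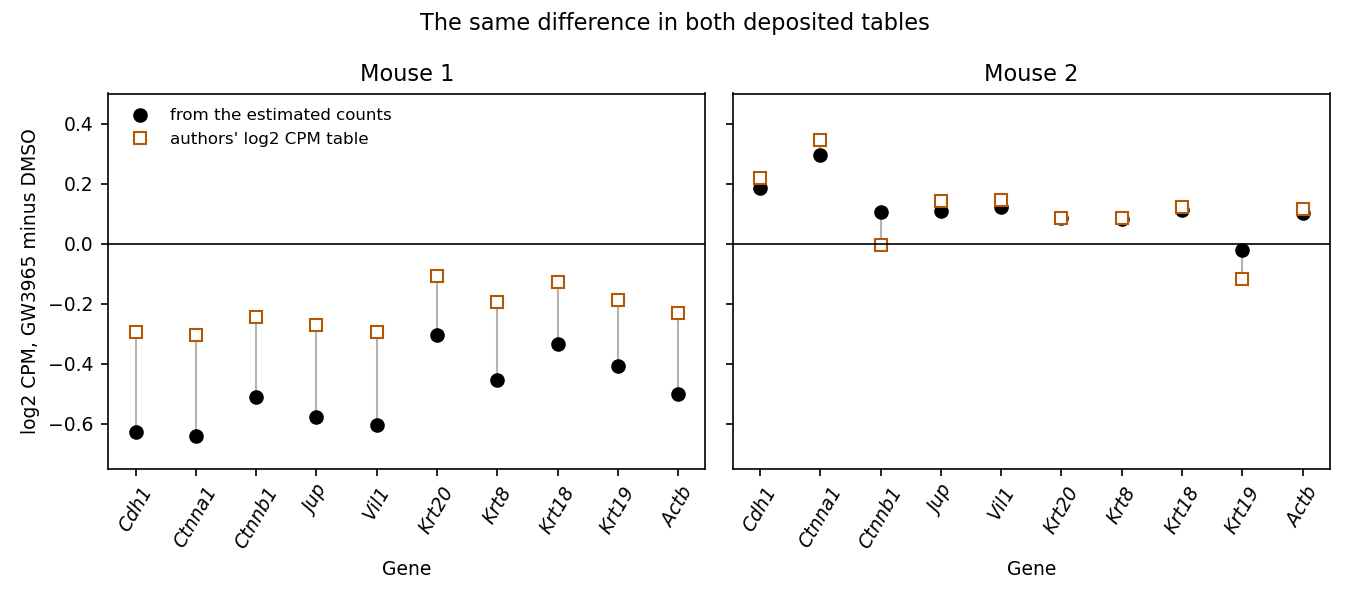
Difference in log2 CPM, GW3965 minus DMSO, of the 10 genes in mouse 1 and mouse 2 from the estimated counts (filled circles) and from the authors' deposited log2 CPM table (open squares). In mouse 1 every square lies nearer to 0 than its circle, with medians of -0.24 and -0.51, and in mouse 2 squares and circles lie close together apart from Ctnnb1 and Krt19.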

How the data were processed

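Poly-A RNA was sequenced with a stranded kit as single reads of 50 bases from 4 libraries, 2 per treatment and 1 of each treatment per mouse, with RNA integrity numbers above 8 per the labels. A protocol text mentions colon samples, but the label for tissue and the growth protocol give small-intestinal organoids, and these were followed. Tools named in the submitters' processing notes are kallisto, CASAVA 1.7 and FastQC, with the build mm10. Estimated counts, effective lengths and TPM of kallisto were deposited by the authors for each transcript, per the file headers. The authors also gave these counts as whole numbers in 1 table of all libraries, and log2 CPM of gene symbols in another (deposited by the authors). Which annotation was used, and whether counting used strand, the sources used here do not say.

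Of 88198 transcripts, 86119 (97.6%) matched GENCODE M21. Their estimated counts were summed per gene and rounded. The unmatched ones, 0.685 to 0.854% of the counts, were left out. The test was the quasi-likelihood test of edgeR 4.0.16 (R 4.3.3) with filterByExpr, TMM scaling and a Benjamini-Hochberg adjusted p under 0.05, without a block, which left 2 residual degrees of freedom. Gene counts were foreseen in the whole-number table, which proved to be per transcript, so its sums were an alternative. Differences within a mouse are of log2 CPM with a prior count of 2. Same-numbered libraries share a mouse by their labels, so the pairing was also fitted as a block, although the deviations of the 2 libraries of a mouse from the group means had a correlation of 0.072 over genes. Every pair of libraries differed beyond sampling noise (chi-square over its degrees of freedom 10.5 to 77.6). Other alternatives were DESeq2 1.42.0, other scalings, no filter, protein-coding genes alone and leaving out each library. The p-values measure the spread between cultures of 2 mice. Depth limits counting error, and reads had no molecular identifiers.

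The 10 genes and the 23 gene lists (312 genes) were chosen with earlier results of these data known. From each list the text names called genes or, failing these, some of the 3 with the highest mean log2 CPM, and adds 5 genes by likeness. The 7 LXR targets served as a check of the treatment. Marker genes named beside their lists were chosen after their values were seen.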

Additional observations from a re-analysis of the deposited data

Results flagged for a closer look

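For 9 of the 10 genes the difference between GW3965 and DMSO pointed one way in mouse 1 and the other way in mouse 2, with 1 library per treatment and mouse. The difference between the mice was not tested, and 33.0% of all genes tested also were negative in mouse 1 and positive in mouse 2. On the log2 scale, the difference in mouse 1 minus that in mouse 2 was -0.93 for Ctnna1, -0.81 for Cdh1, -0.73 for Vil1, -0.68 for Jup and -0.62 for Ctnnb1. It was -0.60 for Actb, -0.54 for Krt8, -0.45 for Krt18 and -0.39 for Krt20. For all 9 the GW3965 library of mouse 1 was the lowest of the 4 and the GW3965 library of mouse 2 was the highest. Mitochondrial counts were 14.01% in the GW3965 library of mouse 1, against 7.6% to 9.43% in the others. The part of the makeup of either library in these differences was not tested.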

How the results depend on the processing

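The number of genes called was 8 and became 13 with library totals alone, 14 without a filter on low counts, 20 with DESeq2, 48 with the mouse as a replicate block, and 38 to 84 when 1 library was left out. None of the 10 genes was called in any of these fits, and the block changed no call among them (their median was -0.20 with it). The median log2 fold change of the 10 genes was -0.153, stayed between -0.201 and -0.144 under the other scalings, filters, tables and tests, and ran from -0.607 (without the GW3965 library of mouse 2) to 0.169 (without that of mouse 1) when 1 library was left out. Over the same leave-one-out fits Cdh1 ran from -0.715 to 0.268, Jup from -0.665 to 0.190, Actb from -0.630 to 0.219 and Krt20 from -0.602 to 0.332, and the cause was not tested. In the gene lists 6 genes were called, all LXR targets, and 6 to 9 in the alternatives, where Gzma and mt-Atp8 were also called without the GW3965 library of mouse 2. Abcg5 was not called without the DMSO library of mouse 2 (adjusted p = 0.071), and Mylip, not called at first, was called in 9 of the 12 alternatives with a value. Rescaled without mitochondrial transcripts, which by construction raises every TPM, the DMSO means became 619.1 TPM for Cdh1, 365.4 for Ctnna1, 774.9 for Ctnnb1, 336.2 for Jup, 612.3 for Vil1, 11300 for Krt8, 2748 for Krt18, 5926 for Krt19 and 3321 for Actb. Leaving the GW3965 library of mouse 1 out of the TPM, an alternative added after the data were seen, left a single GW3965 value per gene. With 2 libraries per group, the spread between libraries and not the depth limits these comparisons.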

Other observations

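Setting a gene over Actb instead of the library size moved every log2 difference by 0.50 in mouse 1 and by -0.10 in mouse 2. For Abcg1 the difference between GW3965 and DMSO was 4.11 in mouse 1 and 4.38 in mouse 2 from CPM, and 4.61 and 4.28 over Actb. For Srebf1, the gene of a lipid synthesis regulator, the values were 2.45 and 2.60 from CPM and 2.95 and 2.50 over Actb. For Mylip, a ubiquitin ligase gene, the values were 2.80 and 1.77 from CPM and 3.30 and 1.67 over Actb. The shift is the same for each gene by construction, so it says nothing of how these genes differ between the mice.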
